A study of Mus musculus with 6 samples.

Results

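Hepatic stellate cells contract when catecholamines, endothelin or angiotensin reach receptors on their surface, and the genes of these receptors are described here. The set of 10 genes held Adra1a, Adra1b, Adra1d, Adra2a and Adra2b (alpha adrenergic receptors), Ednra and Ednrb (endothelin receptors), Agtr1a (the angiotensin II type 1a receptor), Avpr1a (the vasopressin 1a receptor) and Edn1 (the precursor of the ligand endothelin-1). They were chosen by name, with the difference between the genotypes in these same libraries already known, so their differences are given as a description without a test. They are 10 of 17909 gene identifiers listed in at least 1 library. All 10 were found by symbol, 7 were listed in every library, and 7 passed the filter on low counts.

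RNA was sequenced in 6 libraries of primary stellate cells cultured to day 1, and the labels describe the mice as male C57BL/6 aged 24 weeks. In the 3 HAS2_Tg libraries (replicates 4, 5 and 6) the mice carried human HAS2, a hyaluronan synthase gene, under the alpha smooth muscle actin (ASMA) promoter, which is itself active in contractile stellate cells. In the 3 Has2_KO libraries (replicates 7, 8 and 9) floxed Has2 was deleted by Lrat-Cre, whose promoter is active in stellate cells. Per the labels' protocols, all preparations shared the depletion of Cd11b-positive macrophages. RNA of Itgam, the gene of Cd11b, nevertheless differed between the groups. Its mean was 0.0888 CPM (counts relative to library size, TMM-scaled) in HAS2_Tg and 22.1 CPM in Has2_KO (log2 fold change -7.81). Whether the depletion was equally complete in both groups was not tested. No wild-type library was analysed here, so a difference cannot be assigned to the transgene or to the deletion.

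The Has2_KO libraries went against the label of male mice. Xist, the X-linked RNA made in female cells, had 3, 6 and 4 counts in HAS2_Tg, against 5219, 5527 and 5701 in Has2_KO. The Y-linked gene Ddx3y had 746, 990 and 1059 counts in HAS2_Tg and 642, 644 and 701 in Has2_KO, and Kdm5d, also Y-linked, had 346, 379 and 452 in HAS2_Tg and 264, 284 and 275 in Has2_KO. Each Has2_KO library thus held both Xist and Y-linked RNA. Ifi202b, an autosomal interferon-inducible gene whose level is known to vary between mouse strains, had 125, 169 and 167 counts in HAS2_Tg, against 1, 0 and 1 in Has2_KO. No library separates these differences from the genotype, so sex, any other difference between the mice and genotype cannot be told apart in any value given here. HAS2_Tg replicate 4 also stood apart from its group, with a chi-square per degree of freedom of 22.8 and 31.5 against the other HAS2_Tg libraries, 6.24 between those, and 2.31 to 3.17 within Has2_KO. A single gene outside the set held 1.59% of counts in HAS2_Tg replicate 4, against 0.156% in replicate 5 and 0.0467% in replicate 6. Its part in these chi-square values was not tested. Without HAS2_Tg replicate 4 the members' log2 fold changes were 3.64 for Adra1d, 1.92 for Adra2b, 0.71 for Adra1b and 0.44 for Agtr1a. They were 0.21 for Ednrb, -0.18 for Ednra and -3.09 for Edn1, and no direction changed.

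Total expected counts, the estimated reads per gene, were between 11961726 and 12423220 per library. Counts listed under mouse Has2 were 847, 889 and 835 in the HAS2_Tg libraries and 1 in each Has2_KO library. Reads of the human HAS2 transgene may have been counted there, and they cannot be told apart from reads of mouse Has2. A list of 15 stellate cell markers, all of them listed in both groups, took 0.718% to 0.72% of counts in HAS2_Tg and 0.476% to 0.501% in Has2_KO. A list of 16 liver endothelial markers took 0.00226% to 0.00261% in HAS2_Tg and 0.109% to 0.12% in Has2_KO, and 14 Kupffer cell and macrophage markers took 0.00113% to 0.00131% in HAS2_Tg and 0.056% to 0.06% in Has2_KO. In bulk RNA, fewer cells of a type and less RNA per cell cannot be told apart.

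**Figure D1:**
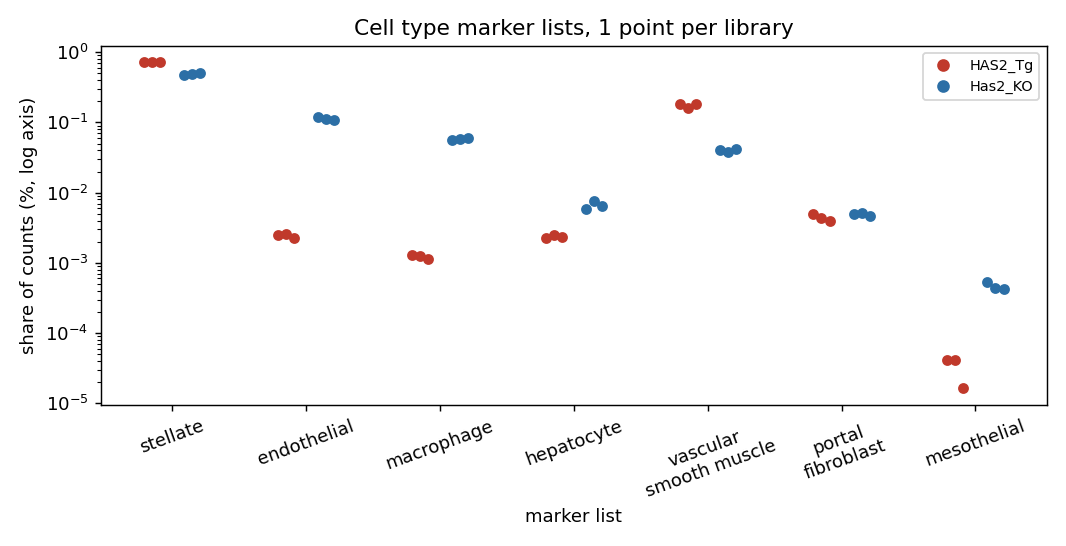
Summed share of expected counts (%, log axis) of 7 cell type marker lists, with 1 point per library, HAS2_Tg in red on the left and Has2_KO in blue on the right of each pair. Endothelial and macrophage lists lie lower in every HAS2_Tg library than in any Has2_KO library, and stellate and vascular smooth muscle lists lie higher.

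All these receptors belong to the family with 7 membrane-spanning helices that signals through G proteins. Alpha-1 adrenergic, endothelin, angiotensin II type 1 and vasopressin 1a receptors couple mainly to Gq, which activates phospholipase C, releases calcium from stores and drives myosin-based contraction. Alpha-2 adrenergic receptors couple mainly to Gi, which lowers cyclic AMP. In liver, noradrenaline from sympathetic nerves, circulating angiotensin II and locally made endothelin-1 are known to contract stellate cells and so to narrow the sinusoids.

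Start-site sequences are shown for the Gi-coupled receptor Adra2b and the ligand gene Edn1, whose levels differed most among members with an entry in the promoter table used, and for the upstream start of Adra1b, where a motif was found. RefSeq windows (GRCm38.p6, 250 bases before to 50 after each start, 5′ to 3′ on the gene's strand) were matched for 7 of 10 members, as 8 windows. The windows shown lie at chr2:127362929-127363228 on the plus strand for Adra2b, at chr11:43901188-43901487 on the minus strand for Adra1b and at chr13:42301226-42301525 on the plus strand for Edn1. Capitals mark matches to the motifs named in the next paragraph.
Adra2b: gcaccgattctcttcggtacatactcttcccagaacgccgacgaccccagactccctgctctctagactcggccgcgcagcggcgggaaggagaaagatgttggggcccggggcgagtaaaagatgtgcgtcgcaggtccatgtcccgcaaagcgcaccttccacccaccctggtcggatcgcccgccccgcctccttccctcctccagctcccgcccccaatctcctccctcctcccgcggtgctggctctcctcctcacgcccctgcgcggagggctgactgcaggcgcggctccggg
Adra1b: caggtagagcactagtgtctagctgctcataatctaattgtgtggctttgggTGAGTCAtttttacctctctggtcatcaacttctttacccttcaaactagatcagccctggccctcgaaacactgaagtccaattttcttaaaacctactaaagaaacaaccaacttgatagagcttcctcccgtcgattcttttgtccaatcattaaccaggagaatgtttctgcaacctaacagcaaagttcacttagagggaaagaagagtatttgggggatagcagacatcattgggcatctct
Edn1: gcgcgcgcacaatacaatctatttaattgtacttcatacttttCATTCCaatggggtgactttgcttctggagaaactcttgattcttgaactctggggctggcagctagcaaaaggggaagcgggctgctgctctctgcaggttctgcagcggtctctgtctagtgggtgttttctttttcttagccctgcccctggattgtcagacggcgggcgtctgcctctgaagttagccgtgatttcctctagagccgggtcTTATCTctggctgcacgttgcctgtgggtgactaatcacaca

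Both strands were searched for the CArG box of serum response factor and for the AP-1 motif TGANTCA. The motif AGATAA stood for the family of GATA-binding proteins, and TATAAA for the core promoter box of that name. The motif GGAATG of the TEAD proteins and the steroid receptor element TGTTCT completed the search. The Adra2b window held none of the 6 motifs, was 68.0% G and C and contained 29 CG pairs, against a median of 52.7% G and C over all 32851 windows of the table. The upstream Adra1b window held 1 AP-1 match at -198 to -192 from its start, a motif present in 7.81% of all windows. The Edn1 window held a GATA match on the opposite strand at +9 to +14 and a TEAD match on the opposite strand at -207 to -202, present in 11.2% and 14.7% of all windows. The CArG box was in none of the 8 member windows and in 1.63% of all windows. Adra1a, Adra1d and Agtr1a had no window, so they were not searched. Single matches were also found for Ednrb (the steroid receptor element at -115 to -110, in 19.0% of all windows), Adra2a and Avpr1a (the TATA box, in 13.6% of all windows), and no 2 matches in a member window overlapped.

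The receptor genes spanned a wide range of levels, with Ednrb at the top in both genotypes. Per length, as FPKM (fragments per gene length and sequencing depth, scaled by the authors), the order in HAS2_Tg was Ednrb, Agtr1a, Ednra, Adra1b, Adra2b, Adra1d and Edn1, followed by Avpr1a, Adra1a and Adra2a near 0. Mean FPKM there was 275.3 for Ednrb, 89.3 for Agtr1a, 38.3 for Ednra, 33.6 for Adra1b, 25.4 for Adra2b, 5.46 for Adra1d and 0.317 for Edn1. In Has2_KO the same leading 5 genes came in the same order, and Edn1 then stood above Adra1d. Mean FPKM in Has2_KO was 273 for Ednrb, 71.0 for Agtr1a, 50.4 for Ednra, 23.3 for Adra1b, 7.31 for Adra2b, 3.56 for Edn1 and 0.483 for Adra1d. Ednra and Adra1b overlapped between libraries in HAS2_Tg, where Ednra lay between 35.7 and 41.6 FPKM and Adra1b between 32.2 and 36.0 FPKM. No other neighbouring pair among the leading 7 overlapped within a genotype. Among all genes of a library, Ednrb ranked between 226 and 265 in HAS2_Tg and between 226 and 230 in Has2_KO by FPKM.

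**Figure D2:**
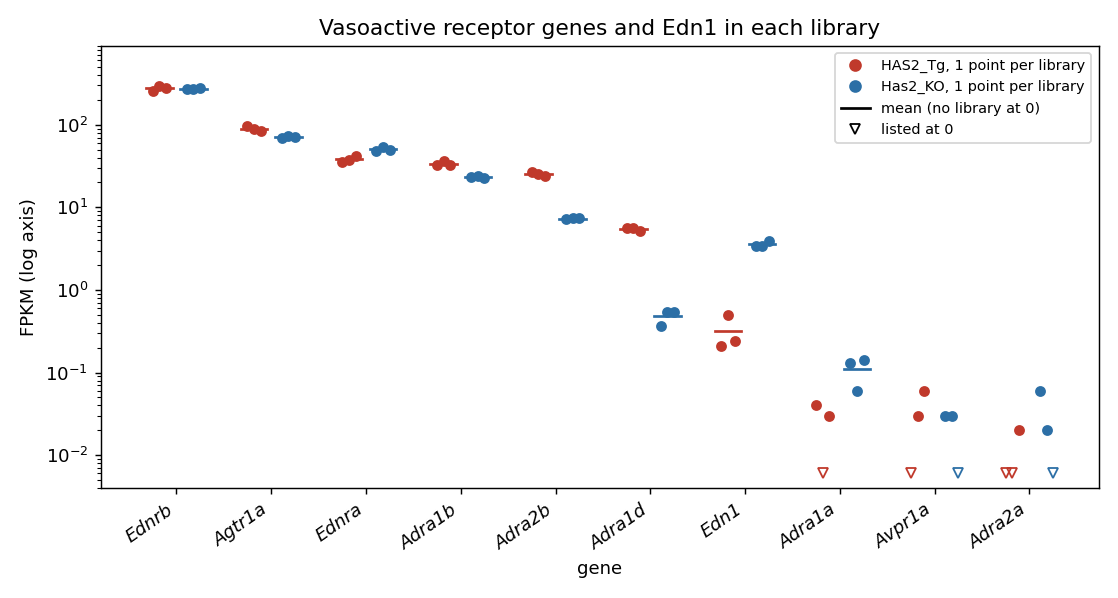
FPKM (log axis) of the 10 genes, with 1 point per library, HAS2_Tg in red on the left and Has2_KO in blue on the right. Lines are group means where no library is at 0, and open triangles mark libraries in which the gene was listed at 0. Adra2b and Adra1d lie higher in HAS2_Tg, Edn1 lies lower, and Ednrb overlaps.

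Each of the 7 members that passed the filter had groups that did not overlap once libraries were scaled with TMM factors, 5 of them higher and 2 lower in HAS2_Tg. Over all 13014 genes tested, 52.2% had groups that did not overlap, 25.2% higher and 26.9% lower in HAS2_Tg. The edgeR test called 40.7% of all genes tested, 2625 genes (20.2%) higher and 2673 (20.5%) lower, and with total counts 1477 higher and 4823 lower. Since the members were chosen with this contrast known, nothing is read from their count. Adra1d and Adra2b were at least 2-fold higher in HAS2_Tg, as were 3.38% of all genes tested. Edn1 was at least 2-fold lower, as were 8.01% of them.

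Among the alpha-1 receptors, Adra1b was the main transcript in both genotypes and Adra1d differed most. Adra1d, the subtype best known from large arteries, is encoded on chromosome 2 at 131545357 to 131562497 (GRCm38, minus strand). It had 160, 163 and 151 counts in the HAS2_Tg libraries, against 11, 16 and 16 in the Has2_KO libraries. Every HAS2_Tg library was far above every Has2_KO library, and the libraries of a genotype lay close together. The mean was 13.9 ± 0.631 CPM (counts relative to library size, TMM-scaled) across HAS2_Tg, against 1.09 ± 0.22 CPM across Has2_KO (SD, n = 3 each), and the log2 fold change was 3.66 (SE 0.18). An antisense transcript, Gm14285, overlaps an Adra1d exon, and whether counting used strand is not stated in the labels or files, so reads of the 2 genes cannot be told apart.

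Adra1b, the alpha-1 subtype known from hepatocytes and blood vessels, is encoded on chromosome 11 at 43774605 to 43901250 (minus strand). It had 1186, 1318 and 1216 expected counts in HAS2_Tg, against 871, 918 and 864 in Has2_KO. The lowest HAS2_Tg library was above the highest Has2_KO library, with a smaller gap than for Adra1d. Mean levels were 109.1 ± 4.97 CPM in HAS2_Tg and 67.2 ± 2.05 CPM in Has2_KO (log2 fold change 0.70, SE 0.07). Its expected counts were not whole in any library, so some of its reads were shared with other sequences by the authors' estimation. The same held for Ednrb in every library and for Adra2b in 3 libraries. The 12 hepatocyte markers took 0.00229% to 0.00246% of counts in HAS2_Tg and 0.00584% to 0.00749% in Has2_KO. Most of the HAS2_Tg share was Trf, with 243, 247 and 263 counts there and 301, 371 and 337 in Has2_KO. In every HAS2_Tg library 9 of the 12 stayed under 1 CPM, as did 6 in every Has2_KO library. The part of hepatocyte RNA in the Adra1b level was not tested.

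Adra1a, the third alpha-1 subtype, did not pass the low-count filter. It had 2, 0 and 1 counts in HAS2_Tg and 6, 3 and 7 in Has2_KO. Over each group that is 3 counts (95% exact Poisson interval 0.619 to 8.77) in HAS2_Tg and 16 counts (9.15 to 26.0) in Has2_KO, where intervals cover counting error only. These few reads set the gene near the limit of detection in both genotypes.

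The makeup of the alpha-1 family differed with Adra1d. Adra1d made up 14.7%, 13.6% and 13.7% of the summed alpha-1 FPKM in the HAS2_Tg libraries, against 1.57%, 2.18% and 2.3% in the Has2_KO libraries. Adra1b made up 85.9% ± 0.636 in HAS2_Tg and 97.5% ± 0.387 in Has2_KO. The summed FPKM of the family was 39.1 ± 2.3 in HAS2_Tg and 23.9 ± 0.719 in Has2_KO, without overlap between libraries. The share of Adra1a stayed under 1% in every library.

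**Figure D3:**
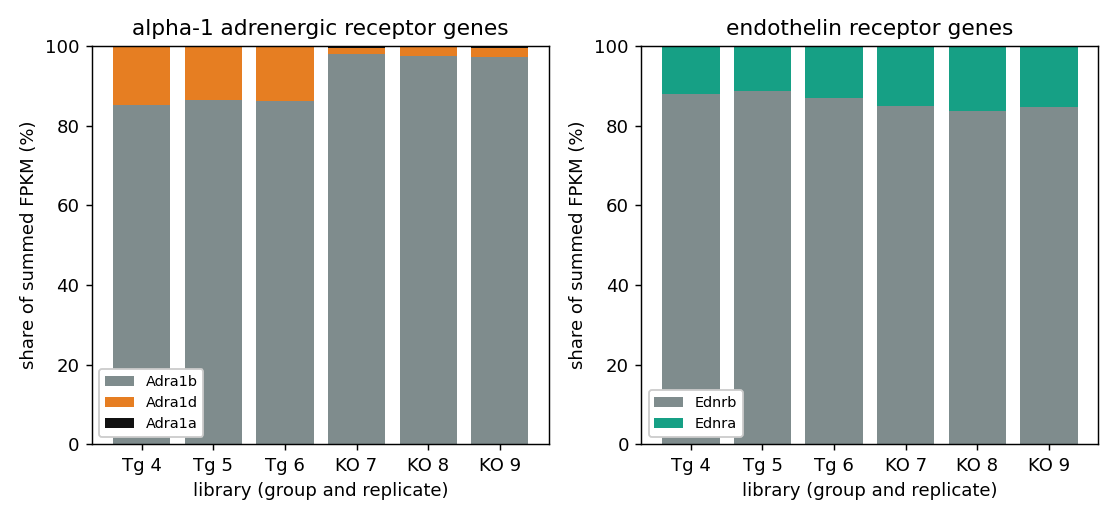
Share of the summed FPKM (%) held by each alpha-1 adrenergic receptor gene and by each endothelin receptor gene, with 1 stacked bar per library and HAS2_Tg libraries on the left. Adra1d takes 13.6% to 14.7% of the alpha-1 sum in HAS2_Tg and 1.57% to 2.3% in Has2_KO, and Ednra takes a smaller share of the endothelin receptor sum in HAS2_Tg.

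Among the alpha-2 receptors nearly all signal came from Adra2b, which was higher in HAS2_Tg. Adra2b is known from vascular smooth muscle, where it mediates constriction, and is encoded on chromosome 2 at 127363179 to 127367221 (plus strand). It had 1276, 1216 and 1156 expected counts in HAS2_Tg, against 355, 362 and 360 in Has2_KO. The Has2_KO libraries were almost identical to each other, and the lowest HAS2_Tg library was well above them. Mean levels were 107.1 ± 6.78 CPM in HAS2_Tg and 27.3 ± 0.274 CPM in Has2_KO, a 3.92-fold difference (log2 fold change 1.97, SE 0.08). By FPKM it ranked 2864 to 3177 among all genes in the HAS2_Tg libraries and 7514 to 7581 in the Has2_KO libraries.

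Adra2a, the main presynaptic alpha-2 receptor of nerves, had 0, 0 and 1 counts in HAS2_Tg and 3, 1 and 0 in Has2_KO. It did not pass the filter, and its groups overlapped. At 1 count over HAS2_Tg and 4 over Has2_KO, no difference was detectable at this depth. Adra2c, the remaining alpha-2 gene, had 1 count in all, in Has2_KO replicate 9.

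The summed share of vascular smooth muscle markers moved with Adra1d and Adra2b. Their list of 10 genes took 0.161% to 0.186% of counts in HAS2_Tg and 0.0381% to 0.0414% in Has2_KO, and its defining regulator Myocd was at 0 in both, as was Rergl. Its most abundant gene in HAS2_Tg, Myh11, was 1269 ± 127 CPM there and 108 ± 6.56 CPM in Has2_KO. Smtn, also of the list, had a log2 fold change of 0.21. Only 5 of the 10 genes were tested, and all 5 were called higher, against 20.2% of all genes tested. The summed share of the stellate list given above was also higher in HAS2_Tg. Of its 15 genes, all tested, 11 were called higher, 0 lower and 4 were not called. Over all genes tested, 20.2% were called higher and 20.5% lower. The part of either list in the adrenergic differences was not tested.

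Ednrb was the most abundant gene of the set, and Ednra stood below Agtr1a. Ednrb, which binds all endothelins alike, is encoded on chromosome 14 at 103814615 to 103844508 (minus strand). It had 12352, 13901 and 13394 expected counts in HAS2_Tg, against 13332, 13435 and 13684 in Has2_KO, and these counts overlapped. Its FPKM also overlapped, at 275.3 ± 17.9 in HAS2_Tg and 273 ± 3.14 in Has2_KO (SD, n = 3 each). With TMM scaling the log2 fold change was 0.18 (SE 0.07), and with total counts it was 0.01. Total-count scaling moved the median of all genes to -0.18, against -0.01 with TMM, which is about the distance between both Ednrb values.

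Ednra, the receptor that prefers endothelin-1 and drives constriction in vessels, is encoded on chromosome 8 at 77663029 to 77724452 (minus strand). It had 1573, 1655 and 1866 counts in HAS2_Tg, against 2190, 2418 and 2262 in Has2_KO. Raw counts did not overlap, and the scaled levels nearly met, with HAS2_Tg replicate 6 at 163 CPM and Has2_KO replicate 7 at 166 CPM. Mean levels were 149 ± 11.9 CPM in HAS2_Tg and 174 ± 8.54 CPM in Has2_KO (log2 fold change -0.22, SE 0.08). With total counts the difference was -0.39, so its direction held and its size depended on scaling. The noncoding transcript 4933431K23Rik overlaps an Ednra exon on the opposite strand, and the same limit of strand applies.

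Ednrb outweighed Ednra in every library, more so in HAS2_Tg. The ratio of Ednrb to Ednra FPKM, which no scaling between libraries affects, was 7.23, 7.77 and 6.6 in HAS2_Tg, against 5.63, 5.11 and 5.56 in Has2_KO. Ednra thus took 12.2% ± 0.879 of the endothelin receptor FPKM in HAS2_Tg and 15.6% ± 0.701 in Has2_KO. The summed FPKM of both receptors overlapped between genotypes, at 313.6 ± 19.1 in HAS2_Tg and 323.9 ± 3.29 in Has2_KO.

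The ligand gene Edn1 had few reads in HAS2_Tg, the opposite direction to Adra1b, Adra1d and Adra2b. Edn1 is encoded on chromosome 13 at 42301476 to 42307990 (plus strand). It had 6, 14 and 7 counts in HAS2_Tg, against 100, 98 and 112 in Has2_KO. The Has2_KO libraries lay close together, and HAS2_Tg replicate 5 held about as many counts as both other HAS2_Tg libraries combined. Mean levels were 0.789 ± 0.374 CPM in HAS2_Tg and 7.85 ± 0.6 CPM in Has2_KO (log2 fold change -3.29, SE 0.25), and -3.75 without HAS2_Tg replicate 5. The gene reached the filter's CPM minimum in 1 HAS2_Tg library and in all 3 Has2_KO libraries, so it passed only through the group where it was high. The antisense transcript Gm47118 overlaps an Edn1 exon, so the strand of these reads is unknown too.

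Endothelial cells are the main source of endothelin-1 in normal vessels, and the endothelial markers moved with Edn1. Of their 16 genes, 10 stayed under 1 CPM in every HAS2_Tg library and none did in every Has2_KO library, and Gpihbp1 was at 0 in HAS2_Tg. Liver endothelial cells are also known to express Ednrb, whose FPKM overlapped between genotypes. The part of endothelial RNA in the Edn1 difference or in the Ednrb level was not tested.

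Agtr1a, which mediates the contraction and fibrogenic signalling of stellate cells in response to angiotensin II, was the second most abundant receptor of the set. It is encoded on chromosome 13 at 30336356 to 30382867 (plus strand). Counts were 2620, 2431 and 2334 in HAS2_Tg, against 1957, 2082 and 1991 in Has2_KO. All HAS2_Tg libraries exceeded all Has2_KO libraries. Mean levels were 216.8 ± 16.1 CPM in HAS2_Tg and 153 ± 4.63 CPM in Has2_KO (log2 fold change 0.51, SE 0.08), and the difference was 0.33 with total counts. Agtr1b, its close copy in rodents, was not listed in any library.

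Avpr1a, the vasopressin receptor of hepatocytes and vascular muscle, was barely detected. It had 0, 1 and 2 counts in HAS2_Tg and 1, 1 and 0 in Has2_KO. Both groups were at or under 3 counts in sum, so no fold is given.

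**Figure D4:**
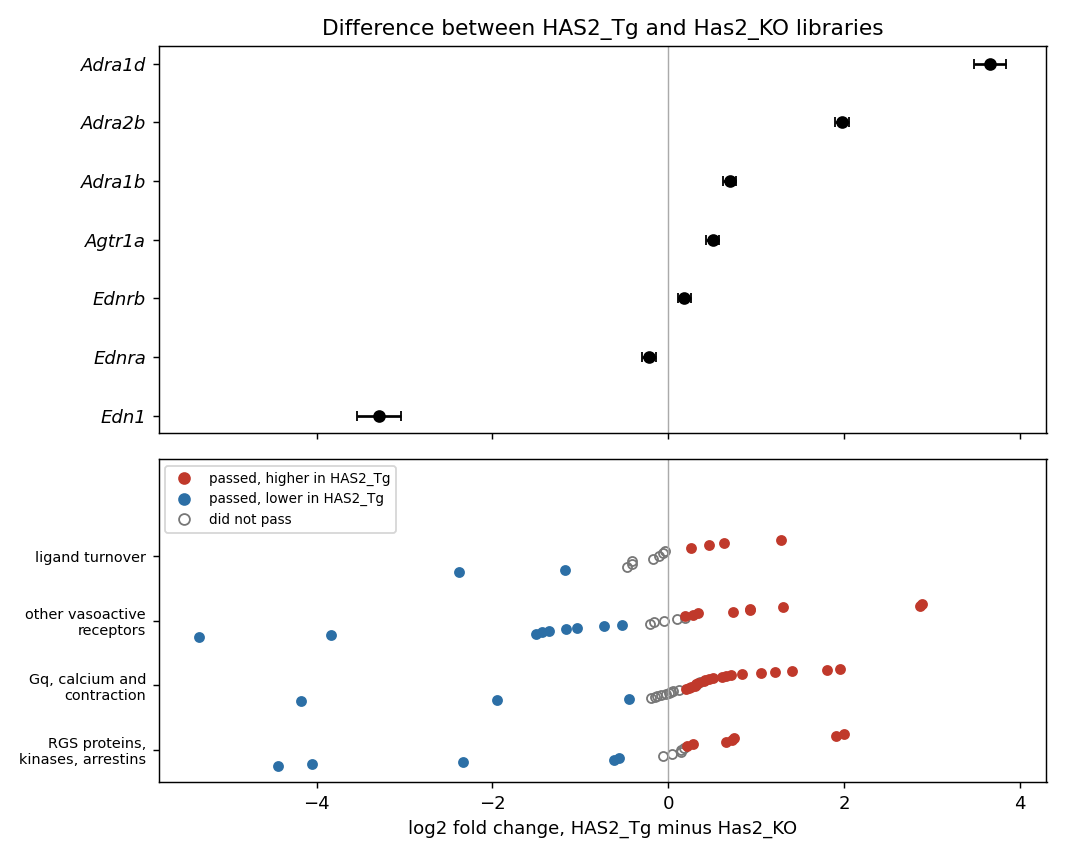
Log2 fold change, HAS2_Tg minus Has2_KO, of the 7 members that passed the low-count filter (top, bars are SE) and of the tested genes of 4 pathway lists (bottom, 1 point per gene). Members run from Edn1 at -3.29 to Adra1d at 3.66. Filled points passed the edgeR test at an adjusted p of 0.05, red higher and blue lower in HAS2_Tg. In the Gq, calcium and contraction list, which also holds genes of other roles, 19 of 33 are red.

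Related receptors and ligands outside the set had few reads, in a list that also held the oxytocin genes and the chemokine scavenging receptor Ackr3. Of its 16 genes 10 were listed, and only Ackr3 passed the low-count filter (log2 fold change 0.66, SE 0.31, edgeR adjusted p = 0.102). Adrb1, a beta adrenergic receptor gene, had at most 1 count in a HAS2_Tg library and at most 8 in a Has2_KO library. The angiotensin precursor gene Agt had 2, 0 and 6 counts in HAS2_Tg and 1, 3 and 5 in Has2_KO. Agtr2, Edn2, Edn3, Avp and Oxt were not listed in any library.

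Enzymes that make or clear the ligands moved both ways. Of 25 such genes 13 were tested, and 4 rose and 2 fell in HAS2_Tg (edgeR, adjusted p under 0.05), against 20.2% higher and 20.5% lower over all genes tested. With total counts 3 rose and 6 fell, and 1 fell without HAS2_Tg replicate 4, Has2_KO replicate 7 or Has2_KO replicate 8. Ece1, which cleaves big endothelin to its active form, was 604 ± 15.5 CPM in HAS2_Tg and 389 ± 9.86 CPM in Has2_KO (log2 fold change 0.64, SE 0.07, edgeR adjusted p = 3.39e-06). Ece1 was thus higher where Edn1 was lower. Anpep, an aminopeptidase that trims angiotensin peptides, fell by 2.38 on the log2 scale (SE 0.10). Renin (Ren1) and tyrosine hydroxylase (Th), which starts catecholamine synthesis, were not listed.

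In a list of G proteins, phospholipase C, calcium, RhoA and myosin light chain regulators downstream of the receptors, more genes rose than fell in HAS2_Tg. This Gq and contraction list also held the Gi subunits Gnai1 and Gnai2, the kinase Prkg1 and the myosin phosphatase subunit Ppp1r12b, which rose too. Its counts thus do not stand for Gq signalling and contraction alone. Of 33 tested, 19 rose and 3 fell, against 20.2% higher and 20.5% lower over all genes tested, and their median log2 fold change was 0.31, against -0.01 over all genes tested. Mylk, the myosin light chain kinase, was 2128 ± 219 CPM in HAS2_Tg and 919 ± 57.7 CPM in Has2_KO (log2 fold change 1.21, SE 0.09, edgeR adjusted p = 4.69e-08). Ppp1r14a, an inhibitor of myosin phosphatase, rose by 1.96 (SE 0.14) and Gna14, a Gq-class alpha subunit, by 1.81 (SE 0.17). Itpr3, a calcium release channel, fell by 1.95 (SE 0.17). With total counts 12 rose and 6 fell, where 1477 of all 13014 genes rose and 4823 fell, so the split depends on scaling. Plcb2, a phospholipase C that was among the 3 genes that fell with TMM scaling, was under the filter's CPM minimum in every HAS2_Tg library. The summed share of vascular smooth muscle markers given above was also higher in HAS2_Tg.

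Receptor regulators split by member. Of 17 tested RGS proteins, receptor kinases and arrestins, 7 rose and 5 fell in HAS2_Tg, against 20.2% and 20.5% over all genes tested, with a median log2 fold change of 0.14. With total counts 5 rose and 6 fell. RGS proteins end G protein signals. Rgs4 was 49.2 ± 1.69 CPM in HAS2_Tg and 12.3 ± 1.06 CPM in Has2_KO (edgeR log2 fold change 2.00 with SE 0.10 and adjusted p = 3.55e-10), and Rgs7 rose by 1.91 (SE 0.18). Rgs2, which acts on Gq, was 0.235 ± 0.0524 CPM in HAS2_Tg and 5.32 ± 0.336 CPM in Has2_KO, and Rgs1, known from leukocytes, was 0.322 ± 0.251 CPM in HAS2_Tg and 5.52 ± 0.374 CPM in Has2_KO. On the log2 scale Rgs2 fell by 4.44 (SE 0.30) and Rgs1 fell by 4.05 (SE 0.33). Both were under the filter's CPM minimum in every HAS2_Tg library and passed only through Has2_KO, and with a stricter filter 2 regulators fell. The macrophage markers moved with Rgs1 and Rgs2: 10 of 14 stayed under 1 CPM in every HAS2_Tg library, with Clec4f and Timd4 at 0, against 1 of 14 in every Has2_KO library. So did the endothelial markers, with 10 of 16 under 1 CPM in every HAS2_Tg library and 0 of 16 in every Has2_KO library. The part of macrophage or endothelial RNA in the RGS result was not tested.

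Receptors of other vasoactive agents divided evenly, with 9 of 23 tested higher and 9 lower in HAS2_Tg, against 20.2% and 20.5% over all genes tested. With total counts 6 were higher and 12 lower. Ramp1, the partner subunit that makes a receptor for calcitonin gene-related peptide, was 36.4 ± 7.97 CPM in HAS2_Tg and 4.99 ± 0.538 CPM in Has2_KO (log2 fold change 2.86, SE 0.17, edgeR adjusted p = 4.30e-09). Gucy1b1, a subunit of the nitric oxide receptor guanylate cyclase, rose by 0.93 (SE 0.07). S1pr1, a sphingosine 1-phosphate receptor prominent on endothelium, fell by 5.34 (SE 0.13), and the natriuretic peptide receptor Npr1 fell by 3.84 (SE 0.16). The endothelial markers moved in the same direction as S1pr1 and Npr1.

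Profiles over the 6 libraries were compared by the root mean square distance between log2 CPM values centred on each gene's mean, as a description in which the genotype difference weighs most. Nearest to Adra1d were the prostaglandin receptor gene Ptger3 (distance 0.15) and Myh11, smooth muscle myosin heavy chain (0.19). The profile of Adra2b was closest to Mgll (0.06), a monoacylglycerol lipase, and Art3 (0.06). Edn1 was nearest to Olr1 (0.13), an oxidised lipoprotein receptor, and Sh3bgrl2 (0.16). The nearest genes to Adra1b were Arhgef19 and Dusp8, to Agtr1a Pea15a and Selenof, to Ednrb Msantd4 and Zdhhc8, and to Ednra Zfp568 and Ap5s1, each within 0.03.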

How the data were processed

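Per the labels' protocols, stellate cells were isolated by collagenase and pronase perfusion and a Nycodenz gradient. The submitters' processing notes name RSEM, with no version stated, and mm10. Per the file headers, every gene of a deposited file has an expected count and an FPKM. Expected counts are the authors' estimates of reads and need not be whole. FPKM values were computed by the authors, to 2 decimals. A gene absent from a library was set to 0.

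The members and lists were chosen with earlier results of these data known. Expected counts were rounded, filtered with filterByExpr (count minimum 10) and scaled by TMM. All 13014 genes were tested with the robust quasi-likelihood test of edgeR (two-sided, HAS2_Tg minus Has2_KO), with Benjamini-Hochberg adjustment over them at 0.05. SEs were computed as the absolute log2 fold change over √F. From each list, up to 4 genes with the smallest adjusted p and at least 1 CPM in the higher group were named; any further name was picked with its values in view. Some genes that this rule takes are not named here. Nothing in the labels ties libraries to separate animals, so p-values measure the spread between libraries. Replicates differed by more than sampling noise (chi-square per degree of freedom 2.31 to 31.5). The code was tested on simulated data. Software was Python 3.11.15 (pandas 2.3.3, scipy 1.17.1, matplotlib 3.10.9) and R 4.3.3 with DESeq2 1.42.0, limma 3.58.1 and edgeR 4.0.16.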

Additional observations from a re-analysis of the deposited data

How the results depend on the processing

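Results were recomputed with total counts, with the size factors of DESeq2, with its Wald test, with no filter or a stricter one, at an adjusted p of 0.01, without each library in turn, and with limma on FPKM (log2, pseudocounts 1 and 0.1). No member changed sign in any alternative that gave it a value, but sizes depended on scaling. Ednrb went from 0.18 to 0.01 with total counts and with limma at either pseudocount, which leaves it without a clear direction. With total counts Adra1b went from 0.70 to 0.53, Adra2b from 1.97 to 1.80, Agtr1a from 0.51 to 0.33 and Ednra from -0.22 to -0.39. With total counts 1477 genes were called higher and 4823 lower in HAS2_Tg, and with limma 1399 and 4198 at a pseudocount of 1 or 1376 and 4138 at 0.1. Genes of the Gq and contraction list were then 12 higher and 6 lower with total counts, and 10 and 5 with limma at either pseudocount. Ligand turnover genes were 6 lower with total counts, 2 higher and 4 lower with limma, and 1 lower with the DESeq2 Wald test or at an adjusted p of 0.01. Other vasoactive receptors were 5 higher with limma. With the stricter filter 2 receptor regulators were called lower and 0 members were at least 2-fold lower, since Edn1 did not pass it. With no filter 1 related receptor gene was called lower. Leaving out 1 library gave 1 to 3 lower ligand turnover genes, with 1 without HAS2_Tg replicate 4, Has2_KO replicate 7 or Has2_KO replicate 8. Adra1d had a log2 fold change of 2.12 and Edn1 -1.80 on the log2(FPKM + 1) scale, which understates changes of low genes. No paired analysis was possible because the groups share no replicate numbers. Counts of at most 16 over a group limit Adra1a, Adra2a and Avpr1a.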
